A study of Arabidopsis thaliana with 18 samples.

Results

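EpiHybrid 150 is the first-generation cross of the epigenetic recombinant inbred line (epiRIL) 150 with the wild type Columbia (Col-Wt). It was compared, window by window, with its mid-parent level, the mean of the levels of epiRIL 150 and Col-Wt. Members were the 100 bp windows of 3 intervals, taken every 100 bp from the start of each interval, in which all 3 lines had at least 10 cytosines with a measured level. Of the 43887 deposited windows, which overlap in steps of 50 bp, 21944 lay on that spacing and 17470 met the cytosine minimum.

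DNA methylation had been measured by bisulfite sequencing of rosette tissue harvested 21 to 22 days after sowing, in a day of 16 h light and 8 h dark. The series holds 18 libraries of 9 lines (Col-Wt, epiRILs 92, 150, 193 and 232, and an epiHybrid of each), of which 6, 2 each of epiHybrid 150, epiRIL 150 and Col-Wt, stand behind the comparison. The deposited table gives 1 level per line and window, which already combines its libraries. No value therefore has a replicate error, and no test between the lines was possible. The labels name no allele and no second parent for the epiHybrid. The published study names Col-Wt as that parent, and the authors' deposited mid-parent values matched the mean of the Col-Wt and epiRIL 150 columns within 5.6e-16 in 39993 windows.

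In plants, methylation at CG sites is copied after replication by the maintenance methyltransferase MET1, whereas CHG and CHH sites depend on other methyltransferases. Over transposons, methylation at CG, CHG and CHH sites also depends on the chromatin remodeller DDM1. Small RNAs can guide methylation to matching sequence there. EpiRILs were bred from a cross of wild type with a plant lacking DDM1 and then selected for a functional DDM1, so each line carries chromosome stretches that had lost methylation beside stretches that had not. In a cross of such a line with wild type, additive inheritance places the hybrid midway between its parents, and a hybrid nearer to the methylated or to the unmethylated parent departs from additivity.

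The intervals lie at 8937051 to 9698100 and at 22235451 to 23207500 on chromosome 3, called the first and the second chromosome 3 interval below, and at 11363351 to 11824750 on chromosome 4 (TAIR10). They held 5715, 8001 and 3754 member windows. A level is a fraction from 0 to 1 over all cytosine contexts, so a change at CG, CHG or CHH sites cannot be told apart from a change at the others. The median member window had 34 cytosines in Col-Wt and 35 in each of the other 2 lines, and read depth is unknown. Col-Wt fell under the minimum of 10 cytosines in 3883 of the 21944 spaced windows, against 2565 in epiRIL 150 and 2357 in epiHybrid 150. The 454 windows whose least covered line had exactly 10 cytosines departed from the mid-parent level by a mean of -0.00174, with an SD over windows of 0.0211. In the 434 windows just left out, with 9 cytosines, the mean was -0.00212 and the SD 0.038.

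Nearly all windows were additive. A window was called additive when epiHybrid 150 lay within 0.1 of the mid-parent level, and above or below the mid-parent level when it departed by 0.1 or more. By this rule 17270 of the 17470 windows (98.9%) were additive, 162 were above (0.927%) and 38 were below (0.218%). Of the 200 windows that departed, 81% were above, with a Wilson 95% interval of 75 to 85.8% that covers only the counting of windows. Averaged over all windows, Col-Wt stood at 0.0411, epiRIL 150 at 0.0303 and epiHybrid 150 at 0.0371, where the mid-parent level was 0.0357. Most windows carry almost no methylation, so this mean departure of 0.00143 is small beside the SD over windows of 0.0239, and its sign depended on how the wild-type level was set. The limit of 0.1 cuts a continuous spread: 113 windows lay 0.08 to 0.1 above the mid-parent level and 51 lay 0.1 to 0.12 above, while 21 lay 0.2 or more above and 4 lay 0.2 or more below.

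The departures were spread unevenly over the intervals. The first chromosome 3 interval had 79 windows above and 11 below, the second had 63 above and 15 below, and the chromosome 4 interval had 20 above and 12 below. As shares of the windows, 1.38, 0.787 and 0.533% were above and 0.192, 0.187 and 0.32% were below. EpiRIL 150 held 77.2% of the Col-Wt mean level in the first chromosome 3 interval, 56.8% in the second and 99% on chromosome 4. The hybrid held 95.3, 80.6 and 99% in the same order. Over all windows, the interval in which the epiRIL had kept its methylation thus had the smallest share above the mid-parent level and the largest share below it. Among the windows at 0.2 or more in Col-Wt, 10, 11.9 and 3.21% were above in the same order, and 1.9, 3.48 and 3.21% were below. By that base the chromosome 4 interval still had the smallest share above, but not the largest share below.

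**Figure D1:**
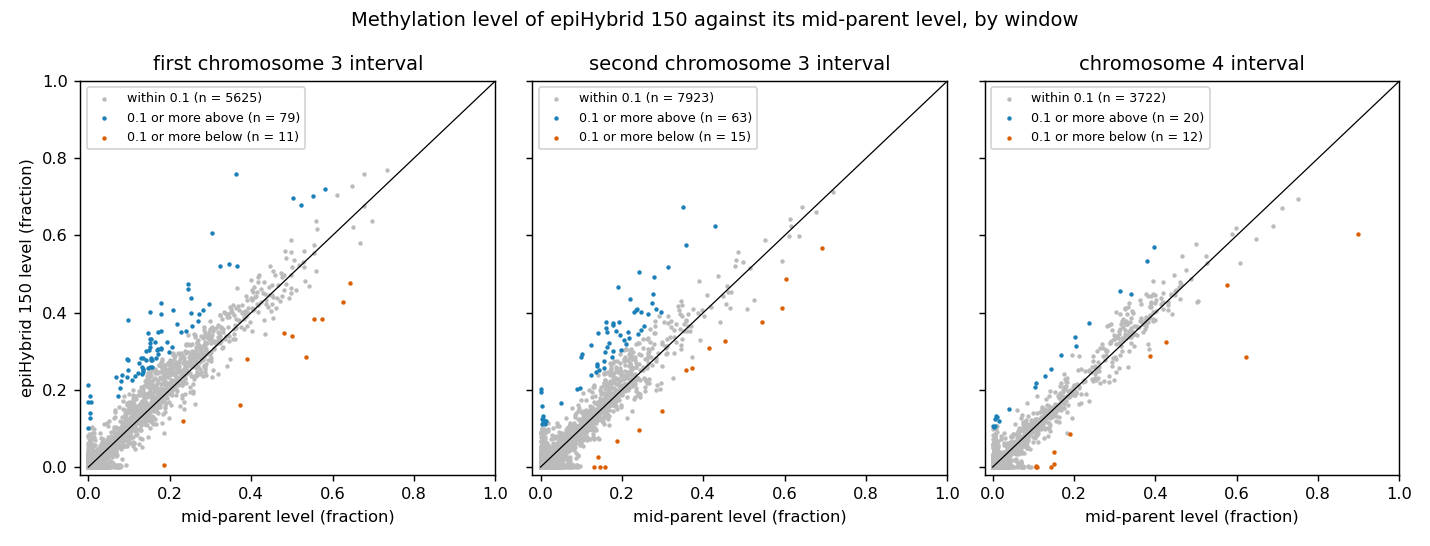
Methylation level of epiHybrid 150 (vertical axis, fraction) against the mid-parent level (horizontal axis, fraction), with a point for each member window and a panel for each interval. Blue points lie 0.1 or more above the line of equality (79, 63 and 20 windows), orange points 0.1 or more below it (11, 15 and 12 windows) and grey points within 0.1.

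Parental difference separated the windows further. EpiRIL 150 was at least 0.2 under Col-Wt in 399 windows (2.28% of all), called lost, and 0.05 to 0.2 under it in 726, called lower. The parents were within 0.05 of each other in 15829 windows, called near equal. EpiRIL 150 was 0.05 to 0.2 over Col-Wt in 497 windows, called higher, and at least 0.2 over it in 19 (0.109%), called gained. The share of windows above the mid-parent level, 0.927% over all windows, was 19.8% among lost, 4.41% among lower, 0.272% among near equal, 0.805% among higher and 21.1% among gained windows. The share below, 0.218% over all windows, was 2.26, 0.964, 0.0758, 1.61 and 10.5% in the same order. The parental difference and the departure are made from the same 2 parental columns, so noise in a parent enters both, and windows with little methylation cannot depart far. These shares are therefore descriptions.

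In the 399 lost windows Col-Wt read 0.358 on average, epiRIL 150 read 0.0267 and epiHybrid 150 read 0.247, against a mid-parent level of 0.192. The hybrid thus lay between its parents, nearer to the methylated parent. Its mean departure was 0.0542 with an SD over windows of 0.0733, and it was above the mid-parent level in 330 of the 399 windows, against 41% of all windows. Of the lost windows, 77.9% were additive by the limit of 0.1, 79 were above and 9 were below. In 30 of the 79 above, the hybrid exceeded Col-Wt as well. For comparison, in the 387 near-equal windows with a mid-parent level of 0.2 or more, where additivity predicts the common parental level, the mean departure was 0.00758 with an SD of 0.0492, and 235 windows were above the mid-parent level.

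A position between the parents puts these values on 1 scale: it is the summed difference of hybrid and Col-Wt over the summed difference of epiRIL and Col-Wt. A value of 0 means a hybrid like Col-Wt, 0.5 one midway and 1 one like the epiRIL. Over the lost windows the position of epiHybrid 150 was 0.336. Window by window, 30 lay above Col-Wt, 104 between 0 and 0.25, 196 between 0.25 and 0.5, 55 between 0.5 and 0.75, 10 between 0.75 and 1, and 4 under the epiRIL. Because a lost window is picked by the columns it is measured against, lost windows were also picked by the parental difference of the adjacent windows on both sides: the position was then 0.317 and the mean departure 0.0586 in 349 windows.

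The chromosome 3 intervals differed in level of loss and in position, and the chromosome 4 interval had next to no loss. In the first interval 159 windows were lost, with levels of 0.325 in Col-Wt, 0.0395 in epiRIL 150 and 0.246 in the hybrid. The hybrid was above the mid-parent level in 139 of them and the position was 0.276. In the second interval 238 windows were lost, with levels of 0.38, 0.0181 and 0.247, and the hybrid was above in 190 at a position of 0.367. On chromosome 4 only 2 windows were lost, 1 above and 1 below the mid-parent level. The difference between the intervals had no replicate to test it against.

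Windows with a partial loss showed the interval difference more plainly. Among lower windows that were methylated in Col-Wt (a level of 0.2 or more), the 136 of the first chromosome 3 interval read 0.311 in Col-Wt, 0.192 in epiRIL 150 and 0.291 in the hybrid. Their mean departure was 0.0394 with an SD over windows of 0.0592, and 112 of 136 were above the mid-parent level. The 54 such windows of the second interval read 0.333, 0.218 and 0.278, with a mean departure of 0.00284 (SD over windows 0.0729) and 22 of 54 above. The 19 of the chromosome 4 interval read 0.364, 0.25 and 0.299, with a mean departure of -0.00753 (SD over windows 0.0788) and 9 of 19 above. The hybrid was thus close to Col-Wt in the first interval and close to the mid-parent level in the others.

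**Figure D2:**
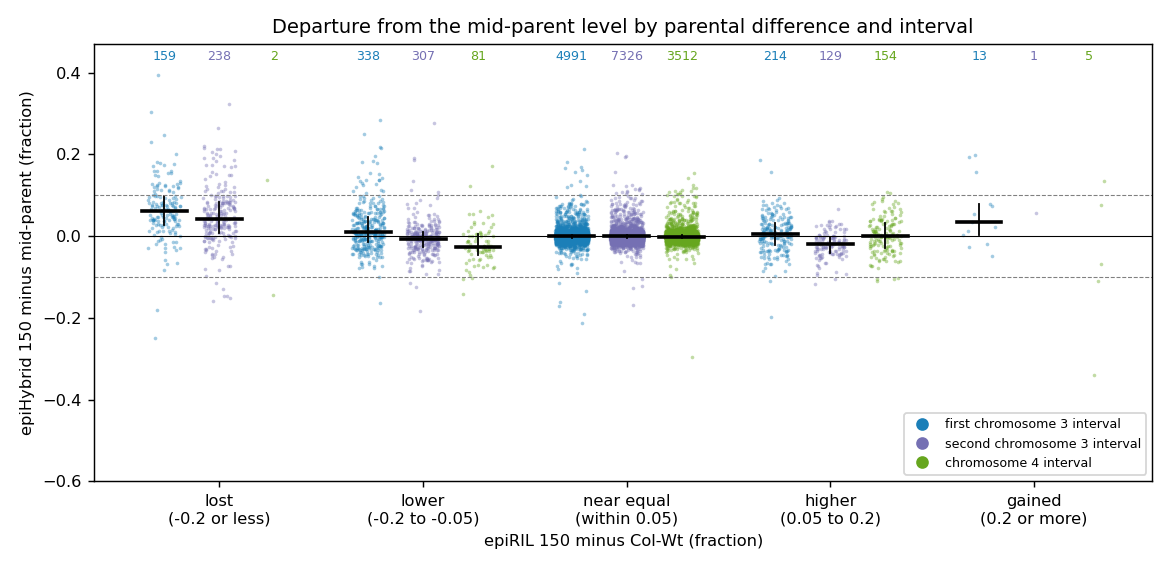
Departure of epiHybrid 150 from the mid-parent level (vertical axis, fraction) by the difference of epiRIL 150 from Col-Wt (horizontal axis, 5 classes) in the 3 intervals. Points are windows, thick bars medians and thin bars the quartiles (drawn from 10 windows on), the numbers above are windows, and dashed lines mark 0.1 on either side. Lost windows of both chromosome 3 intervals have their medians above 0, and near-equal windows lie close to 0.

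The hybrid's place between its parents showed no steady order with the methylation left in the epiRIL. In the 252 lost windows with less than 0.01 in epiRIL 150, the hybrid read 0.226 beside 0.351 in Col-Wt, a position of 0.36. In the 81 with 0.01 to 0.05 left the position was 0.277, in the 37 with 0.05 to 0.1 it was 0.265, and in the 29 with 0.1 or more it was 0.371. By Col-Wt level, the position was 0.283 in the 127 lost windows at 0.2 to 0.3, 0.317 in the 150 at 0.3 to 0.4, 0.396 in the 114 at 0.4 to 0.6 and 0.278 in the 8 above 0.6. The classes up to 0.6 lay in rising order, and the class above 0.6 did not follow it. The Col-Wt level sets these classes and also enters the position, so a high Col-Wt reading by itself raises the position. The order is therefore only a description.

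Lost windows no more than 200 bp apart were joined into 67 regions. Of these, 35 were single windows, and 16 held 5 or more lost windows, 316 of the 399 in all. The single windows did not share the pattern: their position was 0.545, with 6 windows above the mid-parent level by 0.1, 7 below and 16 of 35 above by any amount. The position was 0.232 in the 48 windows of regions with 2 to 4 windows, 0.287 in the 106 windows of regions with 5 to 15 and 0.353 in the 210 windows of the 4 longest regions. Single lost windows had a median of 28 cytosines in Col-Wt, against 37 to 42 in the longer regions, and whether this count contributed was not tested.

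In 15 of the 16 regions of 5 or more lost windows the mean of the hybrid was above the mid-parent level. The position had a median of 0.344 and ran from -0.134 to 0.528, which is 111 to 47.9% of the Col-Wt level, with a median of 68.4%. Of the 16 regions, 10 overlapped an annotated pseudogene. By window, pseudogenes covered 48% of the member windows at 0.2 or more in Col-Wt. RefSeq lists many transposon-derived loci as pseudogenes, and which of these are transposable elements was not examined.

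**Figure D3:**
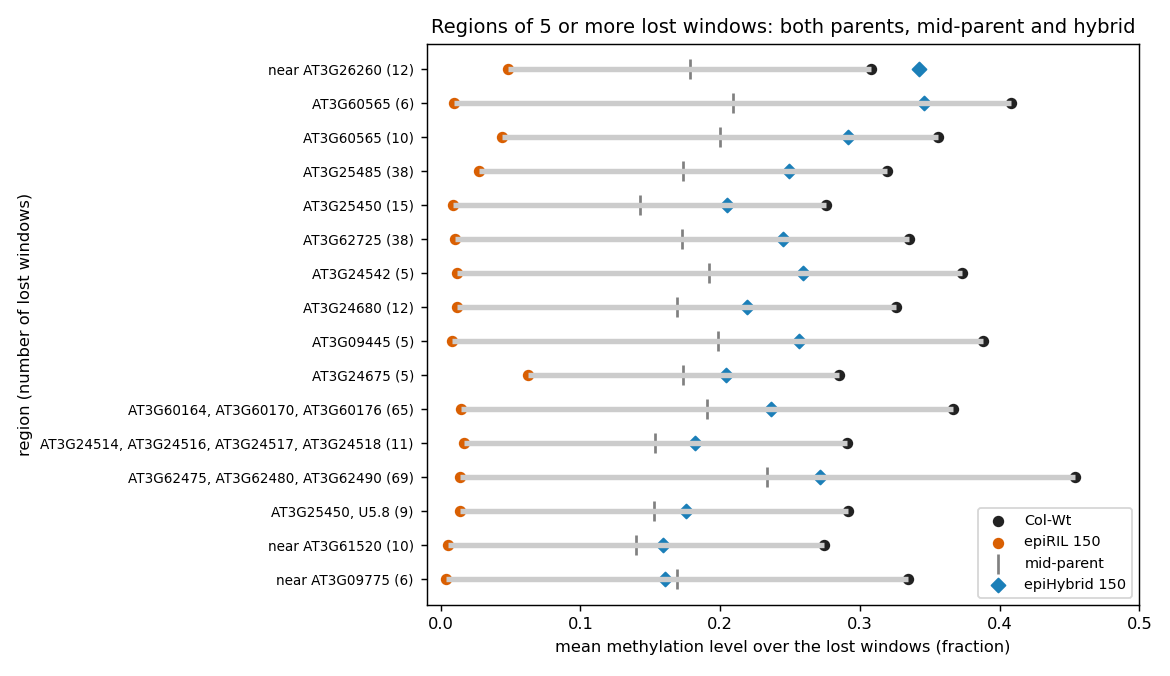
Mean methylation level (horizontal axis, fraction) over the lost windows of each of the 16 regions with 5 or more, named by the genes they overlap or lie near, with the number of lost windows in brackets. Black points are Col-Wt, orange points epiRIL 150, grey ticks the mid-parent level and blue diamonds epiHybrid 150. The diamond lies right of the tick in 15 regions and right of Col-Wt in the region near AT3G26260.

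The longest loss, at 23108851 to 23115750 on chromosome 3, covered the neighbouring pseudogenes AT3G62475, AT3G62480 and AT3G62490. Over its 69 lost windows Col-Wt ranged from 0.247 to 0.701 with a median of 0.448, epiRIL 150 from 0 to 0.104 with a median of 0.00446, and epiHybrid 150 from 0.0961 to 0.673 with a median of 0.256. The levels of the epiRIL and of Col-Wt did not overlap, and the hybrid spanned the gap between them. Lost windows are picked for a parental difference of 0.2 or more, so the gap between the parents is largely built in. The departure was uneven along the region. The 5 windows at 23108851 to 23109350, at the end over AT3G62475, averaged 0.562 for Col-Wt, 0.0264 for epiRIL 150 and 0.474 for the hybrid, 0.179 above the mid-parent level. This end was picked because 4 of the 5 lay 0.1 or more above that level. Over AT3G62475 as a whole the position was 0.413 in 17 lost windows, and over AT3G62480 it was 0.407 in 7. Over AT3G62490 it was 0.493 in 26 windows, with a mean departure of 0.00285 and 15 of 26 windows above the mid-parent level. The same pseudogene held a run below the mid-parent level, at 23113951 to 23114150, where 2 windows read 0.536 in Col-Wt, 0.00312 in epiRIL 150 and 0.121 in the hybrid.

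A loss of nearly the same length, at 22235451 to 22242050 on chromosome 3, covered the pseudogenes AT3G60164 and AT3G60170 and the noncoding RNA gene AT3G60176. In its 65 lost windows the median was 0.356 for Col-Wt, 0.00437 for epiRIL 150 and 0.227 for the hybrid. The hybrid was above the mid-parent level in 55 of 65 windows, and the position was 0.369. It was 0.376 over AT3G60164, 0.428 over AT3G60170 and 0.385 over AT3G60176, closer together than the 3 pseudogenes of the longest loss.

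The hybrid kept more of the wild-type level over AT3G62725 and AT3G25485, pseudogenes in different intervals with 38 lost windows in each region. At 23203651 to 23207450, over AT3G62725, the medians were 0.321 in Col-Wt, 0.0067 in epiRIL 150 and 0.249 in the hybrid. The hybrid was above the mid-parent level in 37 of 38 windows, by 0.0723 on average. At 9236851 to 9240950, over AT3G25485, the medians were 0.3, 0.0134 and 0.248, and the hybrid was above in 35 of 38 windows, by 0.0758 on average. The hybrid stood at 73.1 and 78.1% of the Col-Wt mean in these regions, against 59.9% in the longest loss. EpiRIL 92 read 0.367 and 0.355 in these regions, above Col-Wt means of 0.335 and 0.319. In the longest loss it read 0.457 beside 0.454 in Col-Wt. The part of the Col-Wt level in this contrast was not tested. Within each of the regions with 38 lost windows, the departure was larger along a stretch. At 23206551 to 23207150, the 6 member windows read 0.306 for Col-Wt and 0.278 for the hybrid, with 1 of 6 over Col-Wt. At 9236951 to 9237650, the 7 member windows read 0.294 and 0.293, with 2 of 7 over it. These stretches were picked for windows above the mid-parent level, 4 of the 6 and 6 of the 7. In those 4 and those 6 windows epiRIL 92 read 0.362 and 0.37. It was above Col-Wt (0.292 in both) and above the hybrid (0.298 and 0.302). Past the end of AT3G25485, 3 windows at 9240751 to 9241150 read 0.224 in Col-Wt, 0.044 in epiRIL 150 and 0.328 in the hybrid. They were also picked for lying 0.1 or more above the mid-parent level. EpiRILs 92 and 193 read 0.331 and 0.282 in those 3 windows, so Col-Wt was also under other lines that had kept methylation there.

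**Figure D4:**
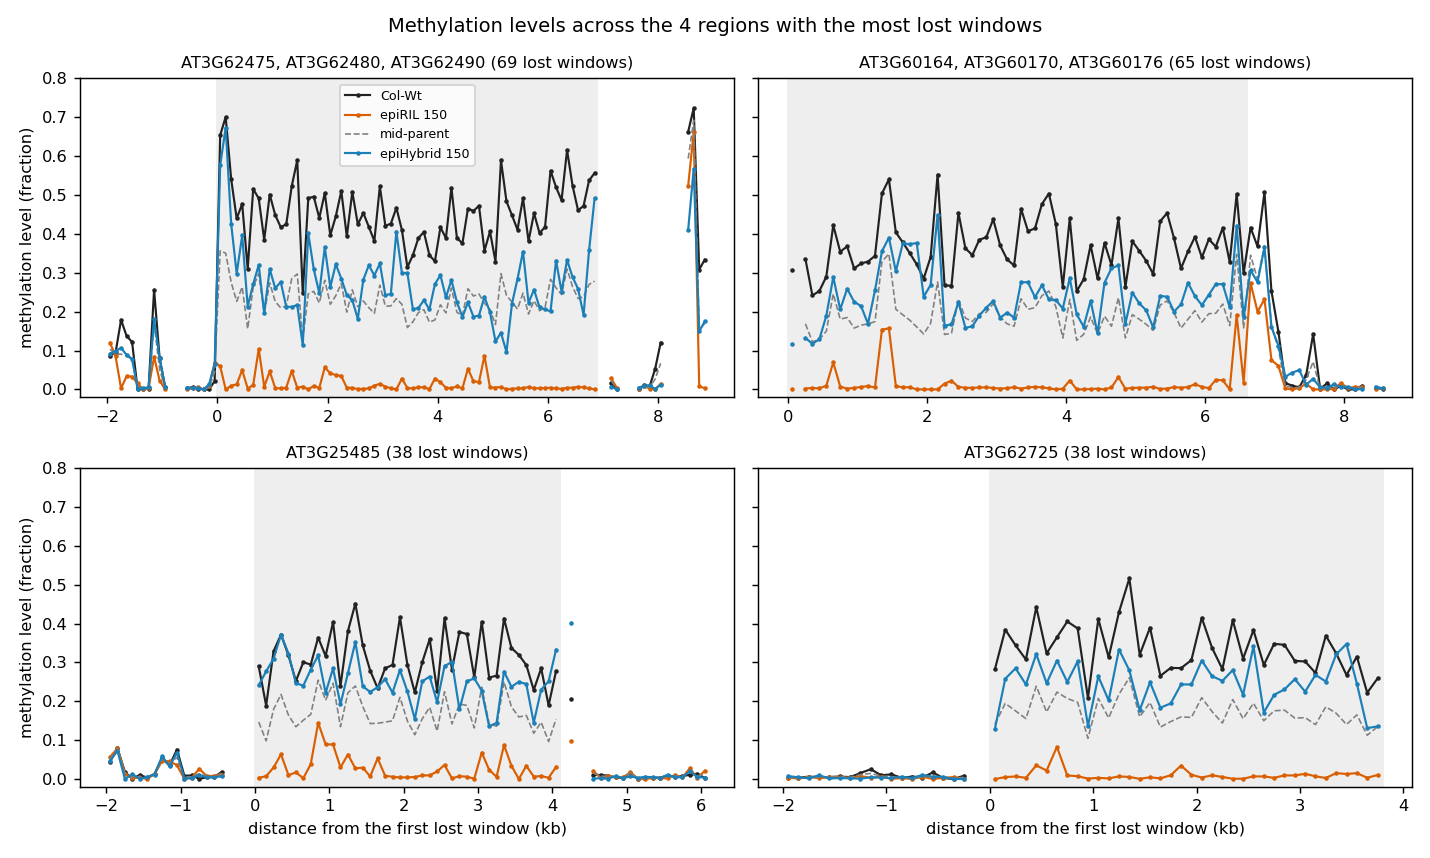
Methylation level (vertical axis, fraction) of Col-Wt, epiRIL 150, epiHybrid 150 and the mid-parent level along the 4 regions with the most lost windows, against the distance from the first lost window (horizontal axis, kb), with 2 kb drawn on either side where measured. Shading marks the lost region and line breaks mark windows not used. The epiRIL lies near 0 inside the shading, and the mean departure of the hybrid is smallest over AT3G62475 to AT3G62490 (0.0378), where its SD over windows is largest (0.0782).

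Among regions whose mean stayed between the parents, the positions closest to Col-Wt were found over the pseudogene AT3G60565. In the 6 lost windows at 22389451 to 22390150 Col-Wt read 0.408, epiRIL 150 read 0.00946 and the hybrid read 0.346, a position of 0.157. In the 10 at 22386151 to 22387150 the levels were 0.356, 0.0443 and 0.292, a position of 0.206. At 22389951 to 22390350 the hybrid passed Col-Wt in 3 of 4 windows, with means of 0.326 in Col-Wt, 0.0496 in epiRIL 150 and 0.403 in the hybrid. At the other end of the range, the 6 lost windows at 23117551 to 23118150, near the noncoding RNA gene AT3G09775, read 0.335, 0.0041 and 0.16, a position of 0.528. The 10 windows at 22766951 to 22767950, near the protein-coding gene AT3G61520, read 0.275, 0.00546 and 0.159, a position of 0.428.

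A short loss in the first chromosome 3 interval was the only one of the 16 regions in which the hybrid averaged above Col-Wt. It lay near the pseudogene AT3G26260, within a run at 9618551 to 9620350 that was joined from windows 0.1 or more above the mid-parent level. The 17 windows of this run lay 0.112 to 0.247 above that level. Col-Wt ranged from 0.142 to 0.389 with a median of 0.28, epiRIL 150 from 0 to 0.211 with a median of 0.0228, and epiHybrid 150 from 0.185 to 0.475 with a median of 0.311. The hybrid exceeded Col-Wt in 16 of these 17 windows, which were picked for a high hybrid level. In the 12 lost windows, picked by the parental columns alone, it exceeded Col-Wt in 11. Its mean there was 0.343 beside 0.308 in Col-Wt, outside the parental range. Over the 17 windows of the run, epiRILs 92 and 193 and epiHybrids 92 and 193 read 0.279, 0.3, 0.304 and 0.303. The other lines that had kept methylation thus also read at or above the Col-Wt mean of 0.278. EpiRIL 232 and epiHybrid 232 read 0.0185 and 0.0752 there.

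The lost region itself spanned 1600 bp with 12 lost windows, and the run above the mid-parent level 1800 bp. In the 10 windows before the run epiRIL 150 read 0.213 beside 0.257 in Col-Wt (82.6%), and in the 10 windows after it 0.225 beside 0.318 (70.9%). The hybrid read 0.271 and 0.314 in these flanks, 0.0358 and 0.0428 above the mid-parent level. Within 2000 bp of the lost region there were further drops of the epiRIL. It read under 0.1 in 5 of 20 windows before it (0 to 0.0974, beside 0.133 to 0.282 in Col-Wt) and in 4 of 20 after it (0.0187 to 0.0612, beside 0.152 to 0.344).

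The methylation that the epiRIL had kept around a lost region showed no steady order with the positions, and some flanks held very few windows. In the windows methylated in Col-Wt within 1000 bp of the region near AT3G26260, the epiRIL held 74.6% of Col-Wt in 18 windows at a position of -0.134. Near AT3G09775 it held more, 85.5% in 2 windows, at the highest position of the 16, 0.528. Beside AT3G60164 it held 50.6% in 4 windows at 0.369. Beside the AT3G60565 region at 22389451 to 22390150 it held 42.8% in 3 windows at 0.157, and beside AT3G25485 47.8% in 1 window at 0.24. The other 6 regions with at least 5 such windows had 2.81 to 47.6% and positions from 0.206 to 0.417. The region near AT3G26260 was singled out after its values were seen.

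**Figure D5:**
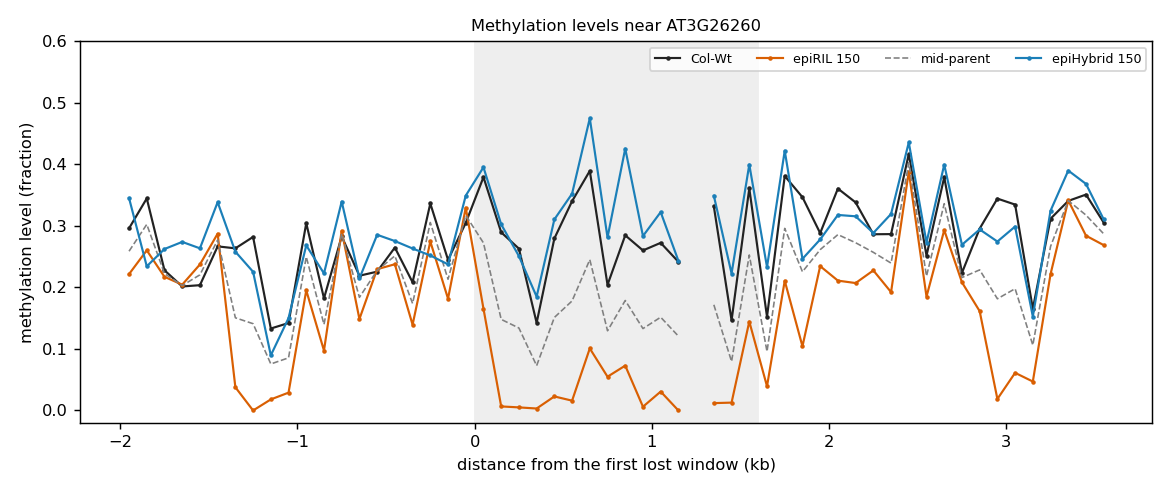
Methylation level (vertical axis, fraction) of Col-Wt, epiRIL 150, epiHybrid 150 and the mid-parent level near AT3G26260, against the distance from the first lost window (horizontal axis, kb). Shading marks the region of lost windows and the line break a window not used. EpiRIL 150 is low over most of the shading and again in short drops on both sides, and the hybrid exceeds Col-Wt in 16 of the 17 windows above the mid-parent level.

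By gene, 15 annotated genes held at least 5 lost windows, of which 12 were pseudogenes, 2 protein-coding and 1 a noncoding RNA gene. The genes with 5 or more member windows included 47 pseudogenes, 569 protein-coding genes and 5 noncoding RNA genes of that type. A mean of 0.2 or more in Col-Wt was found in 21, 6 and 1 of them, the closer base for genes with lost windows. The mean departure over the lost windows was above 0 in 15 of 15, from 0.00285 in AT3G62490 to 0.0827 in AT3G60565. The protein-coding pair was AT3G24514, where 9 lost windows read 0.275 in Col-Wt and 0.186 in the hybrid, and AT3G24542, where 9 read 0.361 and 0.234, with positions of 0.349 and 0.359. AT3G25450, a pseudogene with 27 lost windows, had a position of 0.303. AT3G24680 had 12 lost windows at 0.312 and AT3G24675 had 10 at 0.194. In AT3G26265 5 of 37 windows were lost, at a position of 0.28.

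Lost windows over pseudogenes and over no gene had similar positions, 0.329 in 226 windows and 0.327 in 121. In the 35 lost windows over protein-coding genes the position was 0.405, with 2 windows above and 3 below the mid-parent level by 0.1. Pseudogenes covered 6.58% of all member windows and 48% of those at 0.2 or more in Col-Wt. They covered 56.6% of the lost windows and 33.3% of the windows above the mid-parent level. A lost window must read 0.2 or more in Col-Wt, so the share of 48% is the closer base for the lost windows. Windows with no gene were 23.5% of all, 31.3% of those at 0.2 or more in Col-Wt, 30.3% of the lost, 44.4% of those above and 68.4% of those below.

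Windows above the mid-parent level also occurred where the parents did not differ. In 43 near-equal windows (0.272% of that class) the hybrid was at least 0.1 above, with levels from 0.1 to 0.701 and a median of 0.168, while the medians of Col-Wt and epiRIL 150 were 0.0193 and 0.00981. They were scattered over 35 runs, 28 of them single windows, and 25 of the 43 (58.1%) lay in 20 protein-coding genes, against 71.2% of all near-equal windows. EpiHybrid 150 was the highest of the 9 lines in 41 of the 43. The other 8 lines averaged 0.082 to 0.116 in these windows, and epiHybrid 150 averaged 0.225. The windows were picked for a high value in the hybrid column, so a high rank in it is built in.

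The gene with the most such windows was NRPB2 (AT4G21710), which encodes the second-largest subunit of RNA polymerase II. At 11540851 to 11541150 on chromosome 4, 3 windows read 0.0501 in Col-Wt, 0.0474 in epiRIL 150 and 0.154 in the hybrid. Over all 70 windows of the gene the levels were 0.0457, 0.0367 and 0.0452, so the run did not mark a difference of the whole gene. On the same chromosome the pseudogene AT4G22040 had 2 windows at 11678151 to 11678350 that read 0.312 in Col-Wt, 0.343 in epiRIL 150 and 0.452 in the hybrid, and epiHybrid 232 read 0.416 there. These 2 windows were also picked for a hybrid level 0.1 or more above the mid-parent level.

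Gained windows were too few for a pattern. Of the 19, 13 lay in the first chromosome 3 interval, where Col-Wt read 0.225, epiRIL 150 read 0.5 and the hybrid read 0.419. There 10 of 13 were above the mid-parent level, at a mean departure of 0.0564. Near CYP71B23, a cytochrome P450 gene, 2 windows at 9595451 to 9595650 read 0.457 in Col-Wt, 0.799 in epiRIL 150 and 0.724 in the hybrid, with a median of 12 cytosines in Col-Wt. Near AT4G21580, 2 chromosome 4 windows (11474951 to 11475150) read 0.0897, 0.325 and 0.313, and the 4 windows at 11474851 to 11475250, of which 3 were above the mid-parent level, read 0.121, 0.235 and 0.288. The gained window near AT3G61210 read 0.343, 0.618 and 0.538. These regions were named for having the most gained windows of their interval, and they do not stand for all gained windows. The 5 of chromosome 4 read 0.17 in Col-Wt, 0.404 in epiRIL 150 and 0.226 in the hybrid, at a mean departure of -0.0608 with 2 of 5 above the mid-parent level.

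In the 497 higher windows the outcome differed by interval. In the second chromosome 3 interval the hybrid averaged 0.0965 between 0.0763 in Col-Wt and 0.158 in epiRIL 150, and 28 of 129 windows were above the mid-parent level. In the first interval 122 of 214 were above and on chromosome 4 76 of 154. The higher windows of the second interval were also less methylated in Col-Wt than those of the first interval and of chromosome 4, which averaged 0.171 and 0.181, so level and interval cannot be told apart here.

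Windows below the mid-parent level were few and isolated. The 38 windows formed 31 regions, 24 of them single windows and none with more than 2, whereas the 162 windows above formed 104 regions, 11 of which held 3 or more. In 32 of the 38 the hybrid was under both parents, and in 112 of the 162 it was over both. Where the parents differed by less than 0.2, a departure of 0.1 or more puts the hybrid outside both by construction. Lost and gained windows were not fixed in this way. Among those above, the hybrid was over both parents in 30 of 79 lost and 3 of 4 gained windows. Among those below, it was under both in 4 of 9 lost and 1 of 2 gained windows. Col-Wt was the highest of all 9 lines in 20 of the 38 windows below, and in 8 of the 9 that were also lost. It was the highest in 80 of all 399 lost windows and in 8 of the 162 windows above. A high Col-Wt level raises the mid-parent level, so a high rank of Col-Wt in the windows below is partly built in. In the 9 lost windows below, Col-Wt read 0.395 and epiHybrid 150 read 0.0626. EpiRIL 92, which had kept its methylation over lost windows in general (0.357 beside 0.358 in Col-Wt), read 0.145 there. The windows below had a median of 18 cytosines in Col-Wt, against 32 in the windows above and 34 in all windows. The part of these values in the calls was not tested.

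Near GA3OX3, a gibberellin 3-oxidase gene, 2 chromosome 4 windows (11526451 to 11526650) read 0.214 in Col-Wt, 0.0347 in epiRIL 150 and 0.000952 in the hybrid, and the other 3 epiRILs read 0.00397 to 0.0262. Near SDR1, a short-chain dehydrogenase gene, 2 chromosome 3 windows (22661751 to 22661950) read 0.275, 0.27 and 0.158, below parents that did not differ. Near AT3G26395, 2 windows at 9664751 to 9665050 read 0.527, 0.58 and 0.387, and near AT3G09775, 2 windows at 23117351 to 23117550 read 0.693, 0.593 and 0.489. At 9610251 to 9610450, with no gene within 1000 bp, 2 windows read 0.64 in Col-Wt, 0.574 in epiRIL 150 and 0.43 in the hybrid, where the other lines read 0.41 to 0.514. The window farthest below, at 11757251 to 11757350 on chromosome 4 near the noncoding RNA gene AT4G07055, read 0.52, 0.726 and 0.284, and it was also a gained window. Both parents read 0.2 or more in 5 of these 6 regions.

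Among the other lines, the lost windows of epiRIL 150 were methylated at 0.357 in epiRIL 92, 0.156 in epiRIL 193 and 0.0399 in epiRIL 232. EpiHybrids 92, 193 and 232 read 0.363, 0.264 and 0.196 there, beside 0.247 in epiHybrid 150. Measured by the same rule against their own parents, epiHybrids 92, 193 and 232 had 140, 156 and 119 windows above (0.796, 0.897 and 0.673%) and 33, 32 and 59 below (0.188, 0.184 and 0.334%). Their positions in their own lost windows were 0.319 in 64 windows (0.364% of all), 0.403 in 459 (2.64%) and 0.486 in 603 (3.41%), beside 0.336 in the 399 of line 150. In line 150 the hybrid was above the mid-parent level in 330 of 399 lost windows, in line 92 in 43 of 64, in line 193 in 312 of 459 and in line 232 in 317 of 603. All 4 comparisons share the Col-Wt column, each line has 1 value per window, and differences between the lines could not be tested.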

How the data were processed

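The authors' deposited table gives, per line and 100 bp window, a methylation level as a fraction and a number of cytosines. Per the submitters' processing notes, cutadapt, BS-Seeker2, Bowtie2 and TAIR10 were used. How libraries of a line were combined, and any versions, are not given in the sources used here. The count is of cytosines, not reads, so depth is unknown and no interval or detection limit that needs it is given.

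Mid-parent levels, departures, classes and positions were computed from the deposited fractions (Python 3.11.15, pandas 2.3.3), and the steps were tested on simulated data. Members, limits and region rules were chosen with earlier results of these data known. Regions were named by rule: per interval, the 3 with the most windows above, below or lost, and the 1 with the most gained windows, with genes that overlap or the nearest within 1000 bp. Other regions and genes were named after their values were seen. Genes were placed by position with RefSeq assembly TAIR10.1, whose coordinates were taken to match TAIR10. Windows are neighbours, not replicates, and SDs are over windows.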

Additional observations from a re-analysis of the deposited data

How the results depend on the processing

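Of 52 values under 10 alternatives, 38 stayed within 1.5 times the value given (shares: within its Wilson interval). The position in lost windows ran from 0.317 to 0.373 and their mean departure from 0.0384 to 0.0586. With a limit of 0.05 there were 592 windows above and 195 below, and with 0.2 there were 21 and 4. The additive share of lost windows was then 45.1 and 96.2%. With at least 1 cytosine 87 windows were below, 72.1% of departures were above and 73.3% of lost windows were additive. With at least 20 cytosines 16 were below and 87.1% of departures were above, from fewer windows. With windows lost at a difference of 0.1, 81.8% were additive. The mean departure over all windows turned to -0.000662 when Col-Wt was averaged with epiRILs at 75% or more of its level, which by construction keeps values high relative to Col-Wt, and it was 0.0026 with background subtracted. No paired analysis was possible because the libraries of a line share 1 column, and for the same reason no library could be left out.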

Other observations

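Genes that stayed methylated in epiRIL 150 were also near the mid-parent level in epiHybrid 150. Of the genes with 5 or more member windows, 12 had a mean of 0.2 or more in Col-Wt and no lost window. Over AT4G22410, a protein-coding gene with 63 windows, Col-Wt read 0.225, epiRIL 150 read 0.247 and epiHybrid 150 read 0.248. Over the pseudogene AT3G26483, 47 windows read 0.349, 0.388 and 0.388, and over AT4G21360, 41 windows read 0.279, 0.34 and 0.333. In these 3 genes both lines read above Col-Wt, and the hybrid was 0.0118 to 0.0232 above the mid-parent level. EpiRIL 150 read above Col-Wt in each of the 12 genes. Among the 12, the pseudogene AT4G22040 had the largest departure above the mid-parent level, 0.0252 in 41 windows. The lncRNA gene AT3G04935 had the largest departure below that level, at -0.0316 in 5 windows.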
